A study of Mus musculus with 6 samples.

Results

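The genes described here run the cell death programmes of apoptosis and necroptosis. They are 37 genes chosen by name from the 22731 symbols of an RNA sequencing table of mouse retina, and all 37 were present. They cover the BCL2 family, caspases and the apoptosome, inhibitor of apoptosis proteins, the p53 axis, death receptors, necroptosis kinases, the DNA repair enzyme gene Parp1 and 2 calpains. Retinas of rod-specific Dicer1 conditional knockout mice (genotype Dicerfl/fl, iCre75+, called cKO) were compared with those of control littermates (Dicerfl/fl, iCre75-). Both groups therefore carried the floxed Dicer1 alleles, a Mixed C57BL/6J - SJL background and an age of 4 weeks, and tissue was taken between 8 and 10 in the morning. Each group had 3 libraries, cKO replicates 2, 3 and 4 and control replicates 1, 2 and 3, and each library pooled RNA of 4 mice. The iCre75 transgene expresses Cre recombinase from a rhodopsin promoter in rods, so the other retinal cells keep Dicer1. In such bulk tissue, fewer cells of a type and less RNA per cell cannot be told apart.

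The product of Dicer1 trims hairpin precursors to mature microRNAs, which lower the stability and translation of messenger RNAs that match their seed. In the mitochondrial pathway of apoptosis, BH3-only proteins sense damage and release BAX and BAK from anti-apoptotic BCL2 proteins. BAX and BAK then open the outer mitochondrial membrane, and cytochrome c assembles the apoptosome that activates caspase-9. Death receptors start the same programme at the cell surface through caspase-8. Where caspase-8 is held back, RIPK1 and RIPK3 can instead activate MLKL and rupture the membrane. Photoreceptors can die by several of these routes in inherited retinal degenerations.

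Values are RPKM, read counts scaled to gene model length and library size, as the authors deposited them. Read numbers worked back from the steps of these values gave between 12336433 (cKO replicate 4) and 32934566 reads (control replicate 3) in genes per library. No library was a copy of another in its group: the counts of each such pair gave a chi-square of 9.65 to 30.3 times its degrees of freedom. Dicer1 was at 8.02, 7.06 and 7.90 RPKM in cKO and at 8.48, 8.77 and 8.33 RPKM in control (limma adjusted p = 0.931). All 3 cKO values lay below the controls, which was so for 5.78% of all genes. The reads include other cells and exons outside the floxed part, and what these contribute was not tested. Rod markers, 8 genes with rhodopsin among them, summed to between 20179.9 and 22260.2 RPKM in cKO and between 21365 and 24783 RPKM in control, high in every library. Of 11 marker lists, the summed levels of 10 overlapped between the groups. The bipolar cell list was the exception, at 419 to 474 RPKM in cKO and 396 to 404 RPKM in control, and no marker passed the test. Microglia and macrophage markers summed to between 22.2 and 28.3 RPKM in cKO and 25.8 and 27.7 RPKM in control, with none of the 8 at 0 throughout. Of 5 red blood cell markers, 4 haemoglobin genes were listed at 0 in every library. Lens markers spread from 213 to 2563 RPKM in cKO and from 372 to 3470 RPKM in control. The part of these cell types in the results below was not tested.

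No gene of the 37 passed the test across all genes. Of these, 29 reached an average of 1 RPKM across libraries and were tested with limma on log2(RPKM + 0.5), with p-values adjusted over all 12599 genes tested at a threshold of 0.05. At that threshold 0.00794% of all genes were called, 1 gene in the higher and 0 in the lower direction. At an unadjusted limma p under 0.05, 1 member had a higher mean in cKO (Bid) and 1 a lower mean (Bcl2), where 2.65% of all genes were higher and 3.06% lower in that way, 5.71% in all. Both members together make 6.9% of the 29. The 3 cKO values lay wholly above the 3 control values in Bid, Trp53 and Parp1 (5.91% of all genes). They lay wholly below them in Bcl2, Ripk1 and Fadd (5.78% of all genes). These 6 make 20.7% of the tested members, where 11.7% of all genes were separated in that way. The median log2 fold change of the 29 was −0.0093 (−0.0050 over all genes tested), and the median size of the change was 0.087 (0.076 over all genes). Of the 29, 13 had a mean above 0 and 16 below 0. The 95% interval of the log2 fold change lay within −0.5 and 0.5 for 26 of the 29. For those genes larger changes were outside the interval on the log2(RPKM + 0.5) scale, which understates changes of low genes. The exceptions were Bcl2, Bid and Cdkn1a.

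**Figure D1:**
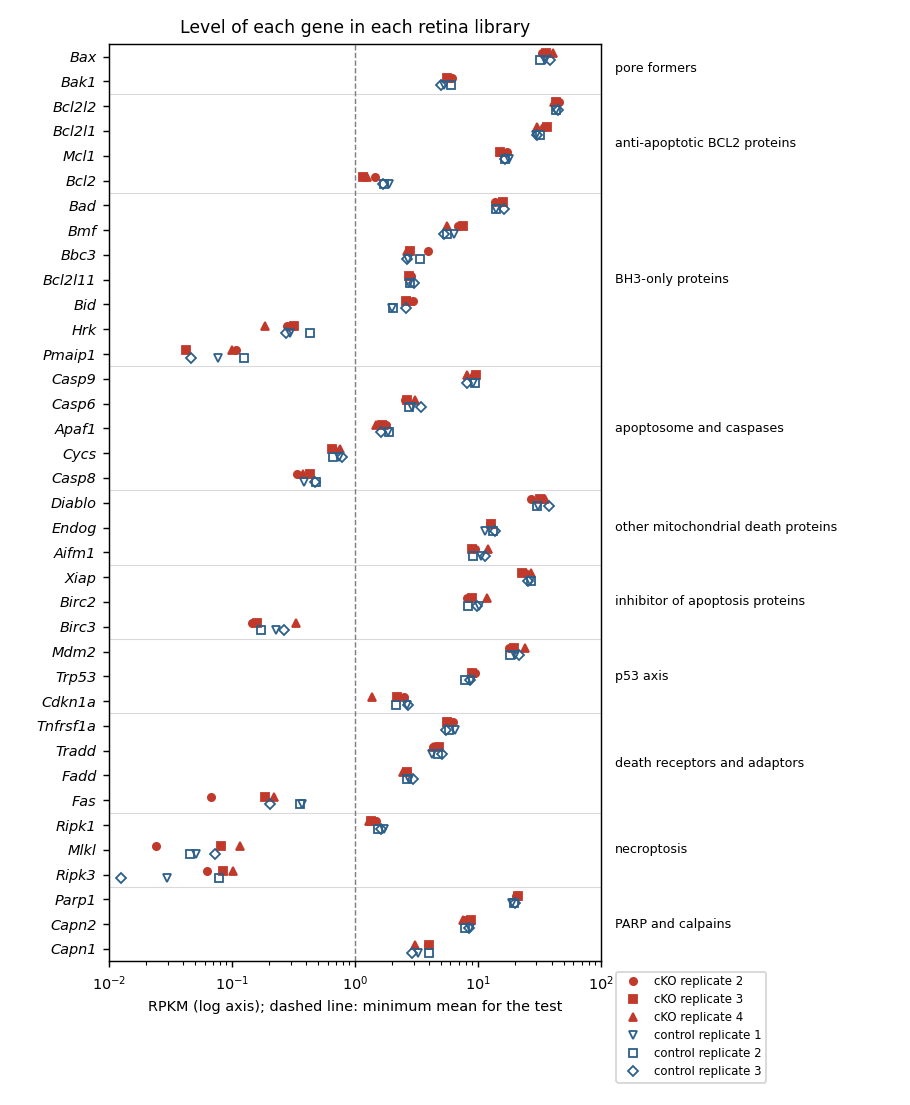
RPKM of each of the 37 genes in each library on a log axis, grouped by role (filled red, cKO; open blue, control). Within most genes the 6 libraries lie close together, and 8 genes lie left of the dashed line at 1 RPKM.

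The levels spanned a wide range on the per-length RPKM scale, as the plot of levels shows. Bcl2l2 was the most abundant member, at 43.9 RPKM in control, followed by Bax at 35.3, Diablo at 33.2 and Bcl2l1 at 30.8 RPKM. Neighbours in this order overlap in their libraries: Bax, Diablo and Bcl2l1 all had control values between 29.9 and 38.6 RPKM. At the other end, Mlkl and Ripk3 reached at most 0.117 and 0.101 RPKM in any library. Each tested member rested on at least 42 reads in every library and on at most 6937.

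Because the cKO genotype is designed to remove the microRNA-making enzyme from rods, 3′ UTRs of the members were searched for matches to the seeds of 9 microRNAs. Mature microRNAs were not measured in these poly(A) libraries. The 9 were the photoreceptor cluster miR-183, miR-96 and miR-182, and let-7a, miR-16, miR-17, miR-29a, miR-125b and miR-34a, which have reported targets among death genes. The sequences below are from RefSeq (GRCm38.p6), 5′ to 3′, with the seed, bases 2 to 8, in capitals, for the 7 whose sites are then shown:
miR-182-5p: uUUGGCAAugguagaacucacaccg
miR-96-5p: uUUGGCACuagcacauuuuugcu
miR-16-5p: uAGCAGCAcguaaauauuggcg
miR-17-5p: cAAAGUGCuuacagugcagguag
miR-29a-3p: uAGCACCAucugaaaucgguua
miR-125b-5p: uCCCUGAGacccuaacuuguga
miR-34a-5p: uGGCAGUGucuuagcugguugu
No 2 of these seeds are the same, although those of miR-182 and miR-96 share all but the last base.

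A site was a stretch of 7 bases on the sense strand complementary to the seed, in the longest 3′ UTR of the gene (GENCODE M21). The letters searched were TTGCCAA for miR-182, GTGCCAA for miR-96, GTGCCAT for miR-183, CTACCTC for let-7a, TGCTGCT for miR-16, GCACTTT for miR-17, TGGTGCT for miR-29a, CTCAGGG for miR-125b and CACTGCC for miR-34a. The sites below are those of 4 of the genes whose groups did not overlap, chosen because the results turn on these genes, plus the miR-29a sites of 2 BH3-only genes as examples of the most frequent match, with the match in capitals:
Bcl2, miR-182 site: ccgaaccaggaaTTGCCAAga
Bcl2, miR-16 site: taagaaaccctgTGCTGCTat
Bcl2, miR-17 site: acagttaagggaGCACTTTca
Bcl2, miR-125b site: cttcagtgattcCTCAGGGcc
Bid, miR-17 site: ccaagagtgcatGCACTTTta
Bid, miR-34a site: gcccgatggtgaCACTGCCtc
Ripk1, miR-16 site at UTR base 683: tcattgcagagcTGCTGCTgg
Ripk1, miR-16 site at UTR base 2411: tggcatctcctgTGCTGCTaa
Ripk1, miR-34a site: gctcccaccatgCACTGCCtt
Fadd, miR-96 site: cttttgtgcccaGTGCCAAaa
Fadd, miR-16 site: atcaattcctccTGCTGCTaa
Fadd, miR-17 site: gagttgagaactGCACTTTac
Fadd, miR-34a site: accccttgacccCACTGCCaa
Bcl2l11, miR-29a site: atgtccctctctTGGTGCTgc
Bmf, miR-29a site: aaggaaagacatTGGTGCTat
The longest 3′ UTRs of Trp53 and Parp1 held none of the 9 motifs.

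Of the 29 tested members, 21 (72.4%) had a site for at least 1 of the 9 microRNAs, against 63.2% of the 11048 tested genes with an annotated 3′ UTR. Their median log2 fold change was −0.025, and that of the 8 members with no site was 0.015. Over all such genes the order was the other way, with a median of −0.0042 with a site and −0.0063 without. For miR-182 the members with a site were Bcl2, Mcl1 and Bcl2l11, and all 3 had a mean below 0. For miR-96 they were Bcl2l11, Apaf1, Casp9, Xiap, Tnfrsf1a and Fadd, with 1 mean above 0 and 5 below. No tested member had a miR-183 site. For miR-16 all 6 members with a site (Bcl2, Bcl2l2, Xiap, Cdkn1a, Fadd and Ripk1) had a mean below 0, with a median of −0.14. Over all genes the median was −0.0092 with and −0.0025 without a miR-16 site, and 25.5% of genes had one, against 20.7% of the members. For miR-29a, 11 members had a site (37.9%, against 16.0% of all such genes), 4 with a mean above 0 and 7 below. For miR-17 it was 10 members (34.5%, against 15.3%), 2 above and 8 below. The other microRNAs did not share that direction: both let-7a members (Bcl2l1 and Capn1) had a mean above 0, miR-125b had 4 above and 3 below, and miR-34a had 4 above and 4 below. The same genes recur in these groups, and the members' UTRs have a median of 1334 bases against 1240.5 over all such genes. All but the photoreceptor cluster were chosen for reported targets among death genes, so the members' shares, such as those for miR-29a and miR-17, depend on that choice. Over all tested genes the median log2 fold change was −0.021 with and −0.0014 without a miR-17 site, the widest gap for any of the 9. A match is a description of sequence, and no test was made on it.

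The pore formers Bax and Bak1 carry out membrane opening, and both were measured at similar levels in the groups. Bax was at 33.7, 35.6 and 40.8 RPKM in cKO and 35.4, 31.8 and 38.6 RPKM in control. The groups overlap fully, with a log2 fold change of 0.057 (95% interval −0.20 to 0.31, limma adjusted p = 0.997). Exons of Bax share 192 bases with Gm45808 on the same strand. Bak1 was at 5.85 ± 0.295 RPKM in cKO and 5.44 ± 0.531 RPKM in control (SD, n = 3 each, exact two-sided permutation p = 0.3). Its exons share 256 bases with Ggnbp1 on the opposite strand, and these libraries carry no strand, so reads there cannot be told apart.

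Among the 4 anti-apoptotic genes, whose products hold BAX and BAK in check, only Bcl2 had groups that did not overlap. Bcl2 was at 1.44, 1.16 and 1.26 RPKM in cKO (274, 322 and 147 reads) and at 1.89, 1.72 and 1.70 RPKM in control (503, 519 and 534 reads). Every cKO library was below every control library, and the cKO mean was 72.7% of the control mean. The log2 fold change was −0.35 ± 0.10 (SE), with a 95% interval of −0.57 to −0.12. Its unadjusted limma p of 0.00784 became 0.758 after adjustment over all genes. An exact permutation test (two-sided) gave p = 0.1, and no lower value is possible with 3 libraries on each side. Leaving out each library in turn gave values between −0.41 and −0.30. Bcl2 lies on chromosome 1 (106538176 to 106714290 in GRCm38). Its exons share 558 bases with D630008O14Rik on the opposite strand.

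Bcl2 contributed little to the summed level of the 4 genes. It made up 1.36% ± 0.138 of that sum in cKO and 1.89% ± 0.122 in control (SD, n = 3). Bcl2l2, which encodes BCL-W, made up 46.2% and 46.9%, Bcl2l1, the gene of BCL-XL, 35.6% and 32.9%, and Mcl1 16.8% and 18.3%. The sum itself was 94.5 ± 5.44 RPKM in cKO and 93.6 ± 0.616 RPKM in control. Bcl2l2, the most abundant, was at 45.9, 43.5 and 41.6 RPKM in cKO and 43.2, 43.5 and 45.0 RPKM in control, and its groups overlap throughout. Its exons share 594 bases with the transcript Gm20521 on the same strand. Bcl2l1 was at 33.7 ± 3.23 and 30.8 ± 1.154 RPKM (exact permutation p = 0.3). Mcl1, a short-lived member of the family, was at 15.9 ± 1.145 and 17.1 ± 0.654 RPKM (exact permutation p = 0.3).

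**Figure D2:**
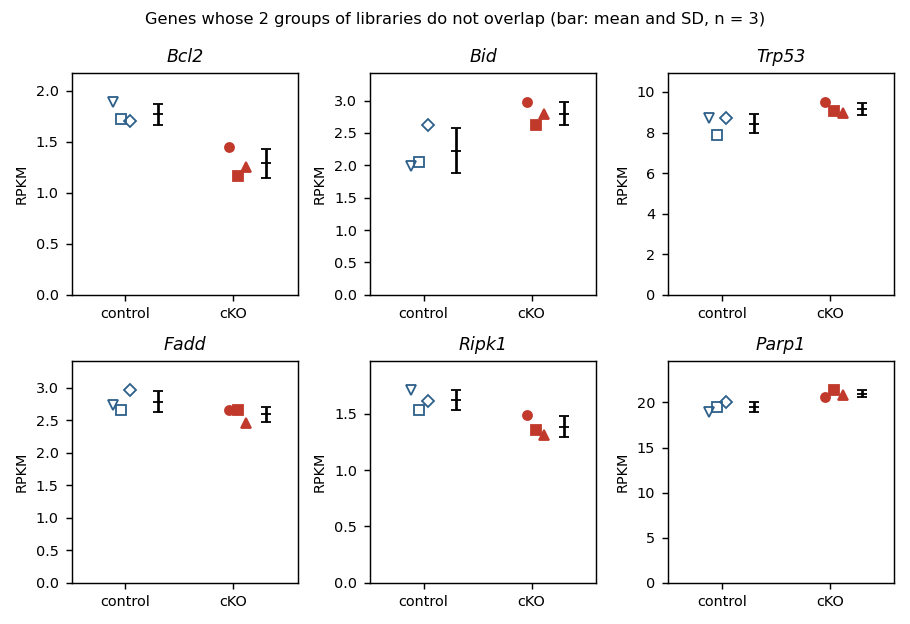
RPKM of the 6 tested genes whose cKO and control libraries do not overlap, 1 point per library, with the mean and SD of each group (n = 3), on axes that start at 0. Bcl2, Fadd and Ripk1 lie lower and Bid, Trp53 and Parp1 higher in cKO, and the gap between groups is narrow in Bid and Fadd.

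BH3-only proteins are the sensors that start mitochondrial apoptosis. Of the 5 tested genes 4 had a mean above 0, as did 6092 of all 12599 genes. The signs of Bad, Bbc3 and Bcl2l11 turned in some alternative fits. Bid, which links death receptors to mitochondria once caspase-8 has cut it, was at 2.98, 2.63 and 2.80 RPKM in cKO and at 2.00, 2.05 and 2.62 RPKM in control. The lowest cKO value, 2.626 RPKM, only just exceeded the highest control value, 2.623 RPKM, which was that of control replicate 3. Its log2 fold change was 0.28 ± 0.11 (SE), with an unadjusted limma p of 0.0326 and a limma adjusted p of 0.864. It lay between 0.22 and 0.39 when each library was left out in turn. Bid lies on chromosome 6 (120893119 to 120917062 in GRCm38).

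Bad, the most abundant BH3-only gene, was at 13.9, 16.2 and 15.8 RPKM in cKO and 14.2, 14.0 and 16.2 RPKM in control. Its groups overlap, and its exons share 517 bases with Gpr137 on the opposite strand. Bmf, whose product is tethered to the cytoskeleton until the cell is stressed, was at 6.96, 7.54 and 5.62 RPKM in cKO and 6.35, 5.66 and 5.32 RPKM in control. Its cKO replicates 2 and 3 were above all controls, and cKO replicate 4 was among them (log2 fold change 0.19, limma adjusted p = 0.946). The value was 0.31 without cKO replicate 4, 0.11 without cKO replicate 3, and 0.37 in the 4 libraries numbered 2 and 3. Bcl2l11, the gene of BIM, had the narrowest range over the 6 libraries of any BH3-only gene, at 2.80 ± 0.0558 and 2.86 ± 0.125 RPKM. Bbc3, the p53 target PUMA, was at 3.12 ± 0.698 and 2.92 ± 0.408 RPKM. Its highest value, 3.92 RPKM in cKO replicate 2, decided the sign of its difference, which was −0.080 without that library against 0.073 with it. Hrk and Pmaip1, the genes of Harakiri and NOXA, were below the filter, at 0.261 and 0.0831 RPKM in cKO and 0.336 and 0.0829 RPKM in control.

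The caspases and apoptosome genes had overlapping groups throughout. Casp9, the initiator caspase of the apoptosome, was at 9.36, 9.59 and 8.23 RPKM in cKO and 9.10, 9.49 and 8.16 RPKM in control. In both groups 1 library was lower than the others (cKO replicate 4 and control replicate 3). Its exons share 94 bases with Cela2a on the opposite strand. Apaf1, the scaffold of the apoptosome, was at 1.64 ± 0.155 and 1.79 ± 0.134 RPKM, and Casp6, an executioner caspase, at 2.78 ± 0.273 and 3.03 ± 0.382 RPKM. Casp8, the initiator caspase of death receptors, was below the filter. It was at 0.338, 0.432 and 0.381 RPKM in cKO (23, 43 and 16 reads) and 0.387, 0.480 and 0.471 RPKM in control (37, 52 and 53 reads), with an exact permutation p of 0.2. Cycs, the gene of somatic cytochrome c, was listed at 0.690 ± 0.0581 and 0.729 ± 0.0609 RPKM. It has many near-identical pseudogenes in the genome, and reads shared with such copies make this level uncertain.

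Genes of other proteins released from mitochondria overlapped between the groups. Diablo, whose product SMAC frees caspases from their inhibitors, was at 27.2, 32.2 and 35.4 RPKM in cKO and 31.1, 30.2 and 38.3 RPKM in control. The highest library of each group, cKO replicate 4 and control replicate 3, stood above the others of its group. Its exons in GENCODE M21 share 1193 bases with Gm49027 on the same strand, 178 with B3gnt4 and 122 with AC157931.1 on the opposite strand. Aifm1, the apoptosis-inducing factor linked to caspase-independent DNA breakdown, was at 10.2 ± 1.70 and 10.4 ± 1.09 RPKM. Endog, a mitochondrial endonuclease, was at 12.8 ± 0.250 and 12.9 ± 1.29 RPKM, the smallest log2 difference of the 29 (−0.00073). Its exons share 379 bases with Spout1 on the opposite strand.

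The inhibitor of apoptosis genes were led by Xiap, whose product binds and blocks caspases directly. Xiap was at 24.1, 22.9 and 27.3 RPKM in cKO and 26.7, 27.2 and 25.9 RPKM in control. Of its cKO values, 2 lay below all controls and 1 above them all (log2 fold change −0.11, 95% interval −0.31 to 0.10). The value was −0.052 without cKO replicate 3 and −0.18 without cKO replicate 4. Birc2, the gene of cIAP1, was at 8.18, 8.96 and 11.999 RPKM in cKO and 10.3, 8.36 and 9.92 RPKM in control. Its neighbour on chromosome 9, Birc3, stayed between 0.145 and 0.329 RPKM, on 10 to 30 reads per library, and was below the filter.

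The p53 axis had values in both directions. Trp53, the gene of p53, was at 9.50, 9.05 and 8.95 RPKM in cKO and at 8.74, 7.90 and 8.69 RPKM in control, so all cKO libraries were above all controls. The cKO mean was 109% of the control mean, a log2 difference of 0.11 ± 0.077 (SE, limma adjusted p = 0.965, exact permutation p = 0.1). Without control replicate 2 the difference was 0.069. Trp53 lies on chromosome 11 (69580348 to 69591873 in GRCm38). Mdm2, the ubiquitin ligase that p53 induces and that degrades it, was the most abundant of the axis. It was at 17.9, 19.6 and 24.2 RPKM in cKO and 20.2, 18.2 and 21.7 RPKM in control, with cKO replicates 2 and 4 at opposite ends.

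Cdkn1a, the p53 target that encodes the cell cycle inhibitor p21, had the widest interval of the 29, from −0.69 to 0.13. Its exons share 273 bases with AC167363.2 on the opposite strand. Cdkn1a was at 2.50, 2.20 and 1.37 RPKM in cKO and at 2.67, 2.18 and 2.69 RPKM in control. The low value came from cKO replicate 4, which held 42 reads of the gene. This library was the shallowest, and whether its depth bears on the value was not tested. The log2 fold change was −0.28 with all libraries and −0.077 without that one (limma adjusted p = 0.956 and 0.806, and between 0.789 and 1 over all alternatives).

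Death receptors and their adaptors were close between groups, and all 3 tested genes had a mean below 0, as did 6507 of all 12599 genes. The signs of Tnfrsf1a and Tradd turned in some alternative fits. Tnfrsf1a, the TNF receptor, was at 6.34, 5.59 and 5.58 RPKM in cKO and 6.55, 5.82 and 5.50 RPKM in control. In each group 1 library was above 6 RPKM and the others below it. Fadd, the adaptor that recruits caspase-8, was at 2.656, 2.662 and 2.464 RPKM in cKO and at 2.731, 2.663 and 2.965 RPKM in control. Its groups do not overlap, but the highest cKO and lowest control values nearly coincide (log2 fold change −0.087 ± 0.082 SE, limma adjusted p = 0.995). The value was −0.048 without control replicate 3 and −0.056 without cKO replicate 4. Fadd lies on chromosome 7 (144578323 to 144582441 in GRCm38), and its exons share 239 bases with Faddos on the opposite strand. Tradd, the adaptor of the TNF receptor, was at 4.51 ± 0.268 and 4.70 ± 0.448 RPKM.

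Fas, the receptor of Fas ligand, was low. It was at 0.0679, 0.186 and 0.220 RPKM in cKO (3, 12 and 6 reads) and 0.371, 0.356 and 0.206 RPKM in control (23, 25 and 15 reads). The cKO mean was 50.8% of the control mean, but the groups overlap and the exact permutation p was 0.2. With no filter on low values, limma gave a log2 fold change of −0.30 (unadjusted p = 0.0383, adjusted p = 0.842).

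Of the necroptosis genes only Ripk1 passed the filter on low values. Ripk1, a kinase that also serves survival signalling below the TNF receptor, was at 1.49, 1.36 and 1.31 RPKM in cKO (164, 219 and 89 reads) and 1.71, 1.54 and 1.62 RPKM in control (265, 269 and 295 reads). All cKO values were below all control values, and the cKO mean was 85.4% of the control mean. Ripk1 differed by −0.17 ± 0.090 on the log2 scale (SE, unadjusted limma p = 0.0958, adjusted p = 0.929, exact permutation p = 0.1), and this lay between −0.21 and −0.14 when each library was left out in turn. Ripk1 lies on chromosome 13 (34002225 to 34035170 in GRCm38) and shares 511 exon bases with Gm17084 on the same strand and 37 with Serpinb6a on the opposite strand.

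Ripk3 and Mlkl, the kinase and the membrane-rupturing effector of necroptosis, were near the limit of detection. Ripk3 had 3, 6 and 3 reads in cKO and 2, 6 and 1 reads in control, and Mlkl had 1, 5 and 3 against 3, 3 and 5 reads. With no filter on low values, limma gave adjusted p = 0.883 for Ripk3 and 0.987 for Mlkl, on a scale where the added 0.5 exceeds every value of both genes.

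Parp1, which senses DNA breaks and whose overactivity can kill cells, was at 20.6, 21.4 and 20.9 RPKM in cKO and at 18.9, 19.5 and 20.1 RPKM in control. All cKO libraries lay above all controls, by a small margin, with the cKO mean at 107% of the control mean. Parp1 differed by 0.10 ± 0.074 on the log2 scale (SE, limma adjusted p = 0.972), with an exact permutation p of 0.1. Parp1 lies on chromosome 1 (180568891 to 180600999 in GRCm38), and its exons share 7 bases with Mir6904 on the same strand. The calpains, calcium-activated proteases linked to photoreceptor death, overlapped between the groups. Capn1 was at 3.68 ± 0.538 and 3.40 ± 0.550 RPKM and Capn2 at 8.12 ± 0.673 and 8.37 ± 0.382 RPKM. Exons of Capn1 share 306 bases with Gm10814 and those of Capn2 share 290 with Gm37885, both on the opposite strand.

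**Figure D3:**
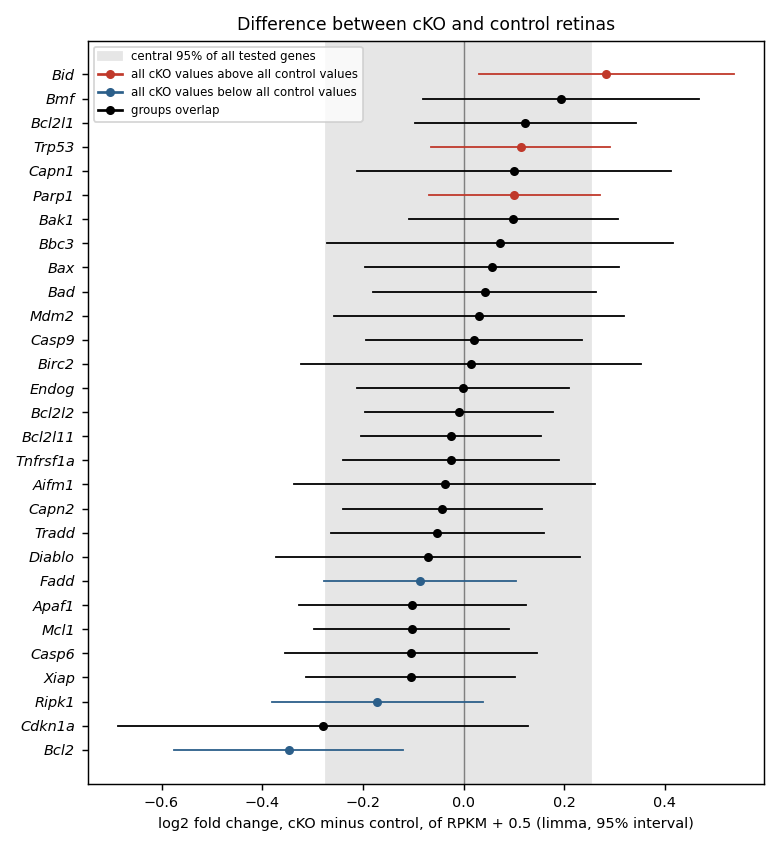
Log2 fold change of RPKM + 0.5, cKO minus control, with its 95% interval from limma for the 29 tested genes, ordered by size. The grey band holds the central 95% of all tested genes (−0.27 to 0.25), and Bcl2, Cdkn1a and Bid lie outside it.

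The differences were also set beside the spread within groups. In the plot of fold changes, Bid, Cdkn1a and Bcl2 had values past the central 95% of all genes tested. The median range within cKO was 0.21 and within control 0.23 on the log2 scale, and the median size of the difference between groups was 0.087. A range of 3 values and a difference between means of 3 are unlike measures. The range tends to be the larger even with no effect, so this does not show whether a difference is small. The difference between group means was larger than the range within both groups for 3 of the 29: Bcl2, Ripk1 and Parp1. This count was not made over all genes, so no share stands beside it. These 3 are among the members whose groups did not overlap, a different condition that 11.7% of all genes met.

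Ratios within a library depend little on how that library was scaled, so 13 pairs of genes with opposing or linked functions were compared as log2 ratios of RPKM + 0.5. The ratio of Bcl2 to Bcl2l1, both anti-apoptotic, was −4.16, −4.48 and −4.13 in cKO and −3.67, −3.88 and −3.81 in control. All cKO libraries were lower, by 0.47 on average. The ratio of Cdkn1a to Trp53 was −1.74, −1.82 and −2.34 in cKO and −1.54, −1.65 and −1.53 in control. It too was lower in every cKO library, by 0.39, and by 0.21 without cKO replicate 4. For both ratios the exact permutation p was 0.1, the smallest this design allows, and 0.65 after Benjamini-Hochberg adjustment over the 13 pairs.

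The ratio of Bax to Bcl2, often used as an index of readiness for apoptosis, was 4.13, 4.44 and 4.56 in cKO and 3.91, 3.86 and 4.15 in control. The mean was 0.40 higher in cKO, and the groups overlap by 1 library each (exact permutation p = 0.2, adjusted 0.65). The ratio of Bax to the more abundant Bcl2l1 was 0.12 ± 0.267 in cKO and 0.19 ± 0.181 in control (SD, n = 3). The difference between the group means was −0.066 (exact permutation p = 0.8). The other 9 pairs overlapped between the groups.

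**Figure D4:**
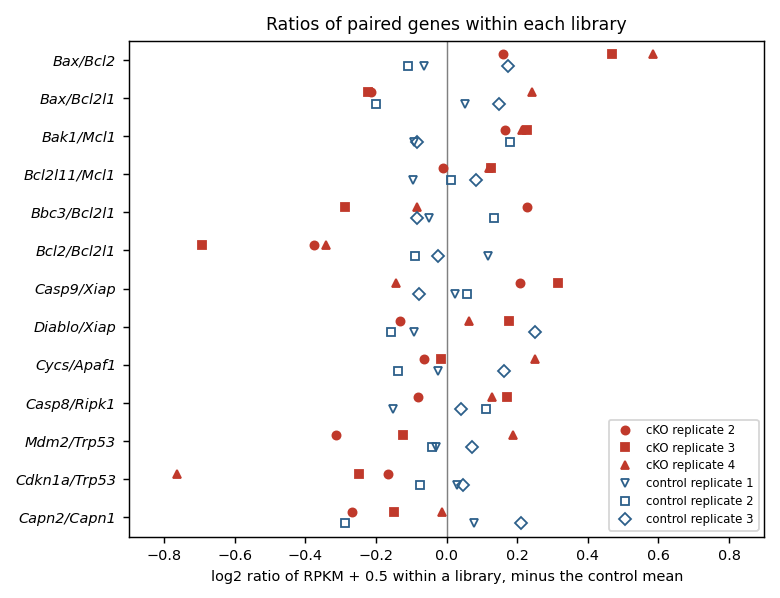
Log2 ratio of 2 genes within each library, minus the control mean of that ratio, for 13 pairs (filled red, cKO; open blue, control). The cKO points of Bcl2/Bcl2l1 and Cdkn1a/Trp53 lie wholly left of the control points, and the other 11 pairs overlap.

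Libraries of different groups also shared patterns. In Bax, Diablo, Aifm1 and Mdm2 the highest library of each group was cKO replicate 4 or control replicate 3. In Casp9, Capn1 and Bmf the same 2 libraries were the lowest of their groups. These 7 genes were picked after their values were seen. Of the 29 members, control replicate 3 held the highest value in 8 and the lowest in 5, and cKO replicate 4 the highest in 5 and the lowest in 7. The median deviation of the members from the 6-library mean was 0.054 in control replicate 3 and −0.070 in cKO replicate 4. What sets these libraries apart was not tested.

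**Figure D5:**
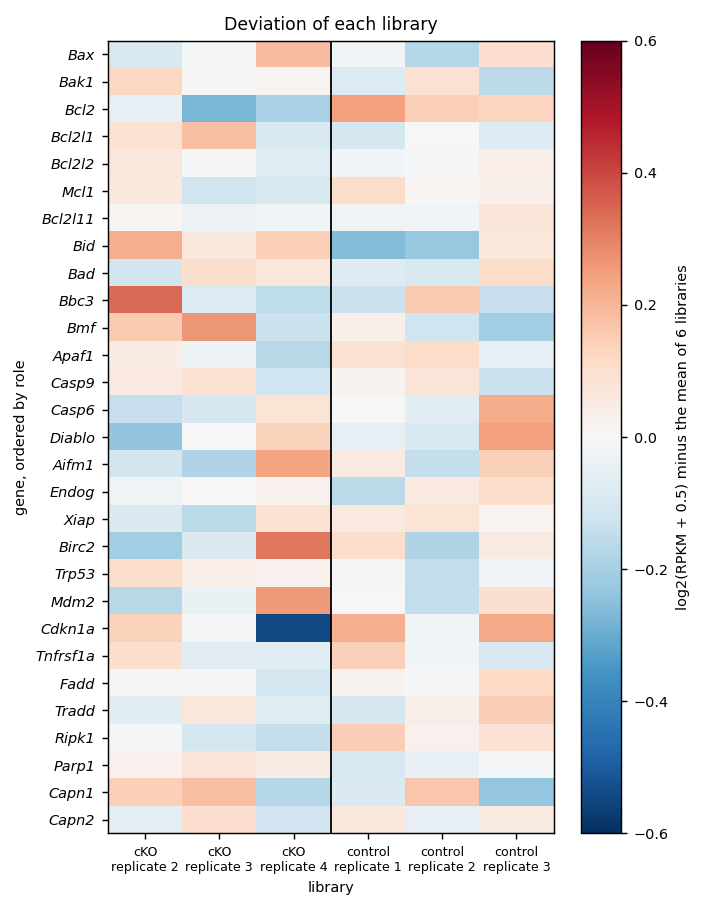
Log2(RPKM + 0.5) of the 29 tested genes minus the mean of the 6 libraries (red above, blue below, columns are libraries, the line parts cKO from control). The deviation of Cdkn1a in cKO replicate 4 (−0.54) is the largest in size.

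Other genes of the same pathways were read from 6 lists arranged by function, which hold 147 genes of the table, 98 of them tested. None passed the adjusted threshold. At an unadjusted limma p under 0.05, 1 had a higher and 6 a lower mean in cKO (7.14%, against 5.71% of all genes), and 15 had groups that did not overlap, 5 higher and 10 lower (15.3%, against 11.7%). The median log2 fold change was 1.05e-05.

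Among 15 other BCL2 family and outer membrane genes, none was at an unadjusted limma p under 0.05. Vdac1, the main channel of the outer mitochondrial membrane and the most abundant of them, was at 202 ± 14.4 and 204 ± 24.8 RPKM. Bcl2l12, with the smallest p of the list, was at 2.27 ± 0.419 in cKO and 1.72 ± 0.438 RPKM in control (limma adjusted p = 0.923). Among 14 other caspase, nuclease and inhibitor genes, 1 was at an unadjusted limma p under 0.05 (7.14%, against 5.71% of all genes). That was Dffb, the nuclease that cuts DNA between nucleosomes in apoptosis. It was at 4.98, 5.08 and 6.68 RPKM in cKO and 3.63, 3.95 and 4.76 RPKM in control, with no overlap (log2 fold change 0.39 ± 0.13 SE, limma adjusted p = 0.848). Acin1, the most abundant of that list, was at 41.3 ± 1.33 and 41.4 ± 0.922 RPKM.

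Of 27 other p53 regulators and targets, 9 had a mean above 0 and 18 below, against 6507 below 0 among all 12599 genes. For 3 of the 27 the limma p before adjustment was under 0.05 (11.1%, against 5.71% of all genes). All 3 had a lower mean in cKO, and 3.06% of all genes were lower in that way. Plk2, a polo-like kinase gene and the smallest p of the list, was at 7.12, 6.16 and 7.60 RPKM in cKO and 9.51, 7.70 and 9.83 RPKM in control, with no overlap (limma adjusted p = 0.848). The others were Mdm4, a partner of MDM2 that restrains p53, at 3.64 ± 0.0974 and 4.49 ± 0.526 RPKM, and the p53 target Trp53inp1 at 3.15 ± 0.110 and 3.74 ± 0.242 RPKM. Ptp4a3, the most abundant, was at 121 ± 2.59 and 110 ± 3.93 RPKM.

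Of 23 other death receptor and NF-kappaB genes, 3 were at an unadjusted limma p under 0.05, all with a lower mean. Tnfaip3, the ubiquitin-editing enzyme A20 that restrains NF-kappaB, was both the most abundant and the smallest p. It was at 59.9, 59.7 and 67.8 RPKM in cKO and 75.1, 73.0 and 80.0 RPKM in control, with no overlap (log2 fold change −0.28 ± 0.092 SE, limma adjusted p = 0.848). The others were the receptor gene Tnfrsf12a at 3.70 ± 0.267 and 4.95 ± 0.993 RPKM and Cflar, the gene of the caspase-8 inhibitor FLIP, at 2.85 ± 0.0277 and 3.32 ± 0.225 RPKM.

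None of 6 other necroptosis and pyroptosis genes and none of 13 other calpain, calpastatin and cathepsin genes was at an unadjusted limma p under 0.05. In the first list Pgam5, a mitochondrial phosphatase, was the most abundant, at 20.03 ± 1.016 and 19.5 ± 1.08 RPKM, and Ticam1, the adaptor TRIF, had the smallest p (2.98 ± 0.194 and 2.50 ± 0.394 RPKM). In the second, the lysosomal protease gene Ctsd was the most abundant, at 240.3 ± 25.4 and 231 ± 5.54 RPKM. Lamp1, a lysosomal membrane protein gene, had the smallest p of that list (149 ± 15.2 and 129.6 ± 9.05 RPKM).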

How the data were processed

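The authors deposited 1 table of RPKM per gene symbol and library, printed to 5 decimals. GSNAP, HTSeq and the mm9 build are named in the submitters' processing notes. Versions, annotation, length model and the treatment of reads with several matches were not given in the sources used here. Per the labels' protocols, poly(A) RNA was copied with random primers and an ordinary second strand. Grouping follows the titles, and p-values measure the spread between 3 pools of mice.

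Genes averaging 1 RPKM or more were tested with limma 3.58.1 (R 4.3.3, variance trend, no block) on log2(RPKM + 0.5), two-sided, adjusted by Benjamini-Hochberg over 12599 genes. Fold changes are on that scale, which understates changes of low genes. Single values were compared by exact permutation. The code was tested on simulated data.

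Whole reads were worked back from the RPKM steps: annotated lengths of single-transcript genes gave each library's denominator, the smallest that returns whole reads. Of the 19140 genes above 0, 99.99% gave whole reads within 6e-06 RPKM. The values cannot show whether a library's reads were all counted 2 times.

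Coordinates (GRCm38) only place genes. The members, lists and microRNAs were chosen with earlier results of these data known, so no list was tested. All 37 members are named by role. Values per library are given for members whose groups do not overlap, members at an unadjusted p under 0.05 and the most abundant of each role, and a few others chosen after their values were seen. From each wider list the most abundant gene and the smallest p are named. Alternatives covered pseudocount, filter, scaling, variance trend, single libraries, the replicate number and voom on recovered reads.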

Additional observations from a re-analysis of the deposited data

How the results depend on the processing

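No member passed the adjusted threshold in any of the 16 alternatives (lowest limma adjusted p 0.0622, Bmf under the replicate block), and the members' median log2 fold change lay between −0.039 and 0.018. For 15 of 29 members the sign held in all alternatives run, Bcl2, Bid, Trp53, Parp1, Fadd and Ripk1 among them. The groups of those named do not overlap, so leaving out libraries or changing the pseudocount could not turn their signs. Over all genes, 2 were called higher with a filter at a mean of 5 RPKM, 3 with median centring, 2 with no variance trend and 2 with voom on recovered reads, an alternative chosen after seeing the data. With no filter 2 were called lower, and with voom 1. Without each library in turn the calls were 1 higher and 0 lower.

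The replicate block on the shared numbers 2 and 3 called 86 higher and 106 lower, and 2 wider pathway genes lower (Faim and Siva1), with 1 residual degree of freedom. The deviations of same-numbered libraries correlated at 0.47 for number 2 and −0.052 for number 3, and the labels name no shared litter or day, so 2 pairs do not settle whether the numbers pair libraries.

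Signs that turned belonged to differences near 0. With the block or the same 4 libraries without it they were −0.017 for Bax, 0.014 for Bcl2l2, −0.0097 for Bad, −0.084 for Birc2, −0.079 for Mdm2, 0.068 for Tnfrsf1a and 0.024 for Capn2. Quantile normalization gave 0.0095 for Bcl2l11 and 0.0046 for Tnfrsf1a, median centring 0.0039 for Endog, and voom −0.024 for Birc2. Without each library in turn the log2 fold change ran from −0.022 to 0.12 for Bax, −0.045 to 0.025 for Bcl2l2, −0.042 to 0.0054 for Bcl2l11 and −0.00020 to 0.11 for Bad. It ran from −0.080 to 0.17 for Bbc3, −0.038 to 0.085 for Casp9, −0.15 to 0.036 for Diablo, −0.16 to 0.043 for Aifm1 and −0.082 to 0.051 for Endog. It ran from −0.14 to 0.12 for Birc2, −0.089 to 0.12 for Mdm2, −0.081 to 0.040 for Tnfrsf1a, −0.12 to 0.0078 for Tradd and −0.10 to 0.0033 for Capn2. For ratios it ran from −0.22 to 0.014 (Bax/Bcl2l1), −0.19 to 0.070 (Bbc3/Bcl2l1), −0.044 to 0.16 (Diablo/Xiap), −0.041 to 0.14 (Cycs/Apaf1), −0.0037 to 0.15 (Casp8/Ripk1) and −0.22 to 0.033 (Mdm2/Trp53). The filter at a mean of 1 RPKM left out 8 members, 3 of which had fewer than 20 reads in every library. The cause of these turns was not tested.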
